A study of Mus musculus with 6 samples.

Results

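B16 is a mouse melanoma line, and the comparison described here sets B16 cells taken through cyclic hypoxia and then 1 h of reoxygenation against cells kept in normoxia. It rests on 2 of the 6 arrays of the series, chosen by their titles, 1 array a side. The cyclic cells had 3 periods of 1 h at under 1% oxygen, with 30 min of reoxygenation in between, and were collected 1 h after the last period. The control had 3 h of normoxia and 1 h more. All cells grew in alpha MEM with 10% serum and were moved to serum-free medium 2 h before the exposure. The labels do not say whether the control lasted as long as the cycles with their pauses, nor that the arrays came from separate cultures. The other arrays were normoxia for 3 h without the extra hour, chronic hypoxia for 3 h with or without 1 h of reoxygenation, and cyclic hypoxia collected without the last hour. Biotin-labelled cRNA from 5 µg of total RNA was hybridised to Affymetrix arrays, which report a signal (a brightness in intensity units) for each probe set, a group of probes for one transcript.

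Cells short of oxygen stabilise the transcription factor HIF, which turns on genes of glucose use, oxygen supply and mitochondrial turnover. Once oxygen returns, the HIF hydroxylases mark it for degradation again. Low oxygen also slows protein synthesis through the integrated stress response, in which the transcription factor ATF4 raises genes of amino acid supply. Reoxygenation brings reactive oxygen species, which free the factor NRF2 to raise antioxidant genes. Immediate-early genes answer such stimuli within minutes, and their messages are short-lived.

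Values are log2 ratios of signals, cyclic hypoxia plus reoxygenation over normoxia +1h, so that 1 is 2-fold higher and -1 is 2-fold lower. Signals under 2.1 were set to 2.1. The main set held the 3573 of 12393 named genes whose probe set averaged 100 or more over the 6 arrays, and a gene with several was represented by the brightest. With 1 array a side there was no test and no replicate error. The yardstick used instead was the ratio between the normoxia arrays, which differed by an SD of 0.21 over the 3573 genes.

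The array after cyclic hypoxia and reoxygenation stood apart from the rest. Over the main set its log2 signals had a mean correlation of 0.917 with the other arrays, against 0.951 to 0.961 for the others. The ratio of 3' to 5' signals, a sign of RNA integrity, was 1.17 for Actb and 0.845 for Gapdh on it, against 1.20 and 0.851 for normoxia +1h. The 24 control probe sets for poly-A transcripts (dap, lys, phe and thr, bacterial RNAs that the standard protocol adds to the sample) all read higher than on the normoxia +1h array, with a median ratio of 1.81. That ratio was 1.49 for cyclic hypoxia without the last hour, 1.05 for chronic hypoxia plus reoxygenation and 0.798 for normoxia, and the labels do not say how much was added. For the 18 hybridisation controls it was 1.11. The arrays were scaled to one trimmed mean, so a difference in total RNA per cell cannot be seen, and fewer cells expressing a gene and less RNA per cell cannot be told apart. The part of these differences in the results was not tested.

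The cells matched their label. Of the melanocyte markers, 6 were on the array and all were in the main set, with summed signals of 19942 after cyclic hypoxia plus reoxygenation and 19650 in normoxia +1h. None of the 11 fibroblast, 11 immune cell and 10 keratinocyte markers was in the main set. Their summed signals were 69.2 and 38.4, 130 and 133, and 57.3 and 29.0 on the same pair of arrays. Of 9 endothelial markers only Eng was in it, at a ratio of 0.10. On all 6 arrays these sums ran from 17658 to 23299 for melanocytes and reached at most 247 for any other cell type.

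The comparison was lopsided towards lower signals. In the main set 272 genes (7.61%) were at least 2-fold lower after cyclic hypoxia plus reoxygenation, and 35 (0.980%) were at least 2-fold higher. Between the normoxia arrays, 1 gene (0.0280%) was that much lower and 0 (0.00%) were higher. The median over all genes was 0.03, a value that the authors' scaling to one trimmed mean keeps near 0. The SD was 0.57, and 35 genes were at least 4-fold lower against 3 at least 4-fold higher. The gene just inside the lower limit stood at -1.004 and the one just outside at -0.999. On the upper side the nearest values were 1.007 and 0.996.

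**Figure D1:**
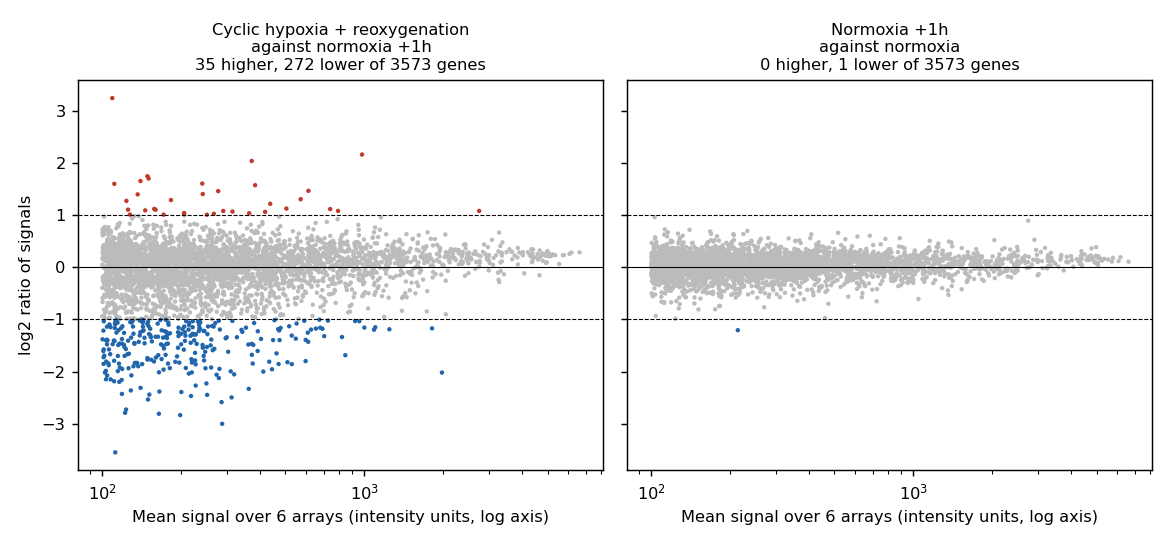
Log2 ratio of signals (vertical) against the mean signal over 6 arrays (horizontal, log axis) for each of 3573 genes, in the comparison (left) and between the normoxia arrays (right), with genes 2-fold or more higher in red and lower in blue. The 272 lower genes lie mostly below a mean signal of 1000, and the right panel shows how close to 0 unexposed arrays stay.

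Egr1, a zinc-finger immediate-early transcription factor, had the highest ratio of the main set. Its signal was 52.1 in normoxia, 35.2 in normoxia +1h, 99.0 after chronic hypoxia, 93.1 after chronic hypoxia plus reoxygenation, 43.7 after cyclic hypoxia and 333 after cyclic hypoxia plus reoxygenation. The ratio was 3.24, and the array after cyclic hypoxia plus reoxygenation was well above all the others, with both chronic arrays next. Ccn1, a secreted matricellular protein of the same early class, read 35.2 in normoxia +1h, 35.2 after cyclic hypoxia and 107 an hour later, a ratio of 1.60. It was higher still, at 244, after chronic hypoxia plus reoxygenation. Egr1 and Ccn1 were both high only on the later of the cyclic arrays, with log2 ratios to cyclic hypoxia of 2.93 and 1.60. The normoxia arrays differed by -0.57 at Egr1 and -0.22 at Ccn1.

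Of 12 immediate-early genes in the main set, 3 (25%) were at least 2-fold higher, against 0.980% of all genes, and 1 (8.33%) lower, against 7.61%, with a median of 0.49. The 3 include Egr1, which passed the signal filter only through the array on which it was high, so that share is in part set by the filter. Ier3, an early gene linked to cell survival, went from 430 to 909 (ratio 1.08). Srf, the serum response factor that drives many of these genes, stood at 0.97, Jun at 0.79 and Fos, its partner in AP-1, at 0.60. Ier2 stood at 0.38, Jund at 0.22, Dusp6 at 0.04 and Nr4a1 at 0.02. The 1 gene at least 2-fold lower was Myc, the growth-promoting transcription factor. It went from 91.0 in normoxia +1h to 35.0, a ratio of -1.38. The other 4 arrays had Myc signals of 78.5 in normoxia, 92 after cyclic hypoxia, 109 after chronic hypoxia and 197 after chronic hypoxia plus reoxygenation. The lowest and the highest Myc signals thus came from the reoxygenated arrays. The mean signal of Myc was 100.4, just above the filter. Against the same control, the chronic regime gave 1.11 for Myc, 2.24 for Fos against 0.60 here, 1.02 for the phosphatase Dusp1 against -0.07, and 1.40 for Egr1 against 3.24.

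The HIF targets of glucose use lay a little above their control. All 12 glycolysis genes in the main set lay above 0, at a median of 0.44, and 2 (16.7%) were 2-fold higher, against 0.980% of all genes. Hk2, hexokinase 2, read 165 in normoxia, 164 in normoxia +1h, 1279 after chronic hypoxia, 885 after chronic hypoxia plus reoxygenation, 534 after cyclic hypoxia and 405 after cyclic hypoxia plus reoxygenation. It was above both normoxia arrays and below the other 3, at a ratio of 1.30, and its level was lower after the last hour than before it. The other was Pfkl, liver-type phosphofructokinase, at 1.01. Slc2a1, the glucose transporter GLUT1, stood at 0.78 (1.16 and 0.86 on its other probe sets), Tpi1 at 0.67, Ldha (lactate dehydrogenase A) at 0.44 and Pgk1 at 0.26. Over all genes the median was -0.04 at mean signals of 100 to 200 and 0.22 at 2000 or more, where Tpi1, Ldha and Pgk1 lie.

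Among 16 other HIF targets, 3 (18.8%) were 2-fold higher, against 0.980% of all genes, and 1 (6.25%) was lower, against 7.61%, with a median of 0.36. Bnip3, a mitophagy receptor, read 123 in normoxia +1h, 332 after cyclic hypoxia and 366 after reoxygenation, a ratio of 1.57. Hmox1, haem oxygenase 1, went from 67.9 to 221 (ratio 1.70), and Ndrg1 from 140 to 370 (1.40). These 3 genes kept their level through the last hour, with log2 ratios between the cyclic arrays of 0.14, 0.21 and 0.35. The lower gene was Tfrc, the transferrin receptor that brings iron into cells, at 678 and 192, a ratio of -1.82. Tfrc read between 433 and 678 on the other arrays.

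Many HIF targets were near their control here and well above it in the chronic regime, which shares the normoxia +1h array. Ddit4, an inhibitor of mTORC1, read 126 in the control, 143 after cyclic hypoxia plus reoxygenation and 656 after chronic hypoxia plus reoxygenation, ratios of 0.18 and 2.38. The transcription factor Bhlhe40 stood at 0.48 and 2.45, Sap30 (a Sin3 corepressor subunit) at 0.26 and 2.36, and the lipid droplet protein Hilpda at 0.41 and 2.17. Ero1a, an oxidase for protein disulfides, was below the control here and above it there, at -0.38 and 2.21. The list medians were 0.36 and 1.53. Kdm3a, a histone demethylase that itself needs oxygen, read 241 in normoxia, 273 in normoxia +1h, 767 after cyclic hypoxia and 363 an hour later. Its ratio was 1.67 at the end of cyclic hypoxia, against normoxia, and 0.41 after reoxygenation, against normoxia +1h. Vegfa, the vascular growth factor, was too dim for the main set, at 28.7 and 48.9 units, against 160 after chronic hypoxia plus reoxygenation.

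The promoters of Bnip3 and of 3 stress genes are shown because they hold the short motifs that bear the names of these pathways. Each runs 5' to 3' on the gene's strand, from 250 bases before to 50 after the RefSeq start in GRCm38.p6. Bnip3 lies at chr7:138909457-138909756 on the minus strand, and capitals mark every match to the hypoxia response element core, ACGTG or GCGTG on either strand, 5 in all with CACGTG counted once on each strand.
Bnip3: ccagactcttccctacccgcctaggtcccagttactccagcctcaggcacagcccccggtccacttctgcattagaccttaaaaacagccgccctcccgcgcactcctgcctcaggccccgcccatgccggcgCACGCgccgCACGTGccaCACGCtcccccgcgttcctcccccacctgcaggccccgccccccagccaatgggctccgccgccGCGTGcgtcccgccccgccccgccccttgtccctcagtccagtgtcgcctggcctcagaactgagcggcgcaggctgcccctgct
Herpud1 lies at chr8:94386179-94386478 on the plus strand, Nupr1 at chr7:126625421-126625720 and Trib3 at chr2:152344011-152344310, both on the minus strand. Here capitals mark the match to TGATGNAA, the CEBP-ATF response element that ATF4 can bind, searched on both strands.
Herpud1: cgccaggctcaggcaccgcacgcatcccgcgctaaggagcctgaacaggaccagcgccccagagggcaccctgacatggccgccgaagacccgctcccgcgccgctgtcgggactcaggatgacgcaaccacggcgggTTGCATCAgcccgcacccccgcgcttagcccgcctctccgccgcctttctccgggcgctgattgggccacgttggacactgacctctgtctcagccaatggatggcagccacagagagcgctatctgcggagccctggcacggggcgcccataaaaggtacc
Nupr1: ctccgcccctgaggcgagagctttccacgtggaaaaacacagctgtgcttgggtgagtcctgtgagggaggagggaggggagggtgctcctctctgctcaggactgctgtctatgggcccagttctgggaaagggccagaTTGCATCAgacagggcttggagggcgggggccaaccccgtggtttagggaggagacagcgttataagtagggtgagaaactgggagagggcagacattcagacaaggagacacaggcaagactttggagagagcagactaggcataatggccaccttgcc
Trib3: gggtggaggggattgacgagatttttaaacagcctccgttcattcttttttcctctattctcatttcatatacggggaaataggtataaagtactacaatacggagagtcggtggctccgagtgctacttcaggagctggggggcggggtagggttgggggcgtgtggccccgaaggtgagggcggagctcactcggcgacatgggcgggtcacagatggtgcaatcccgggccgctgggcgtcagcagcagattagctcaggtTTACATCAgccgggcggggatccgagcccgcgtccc
The match began 112 bases before the start in Herpud1, 110 before it in Nupr1 and 14 after it in Trib3. It was also found 238 bases before the start of Smpd1, acid sphingomyelinase, so that 4 of the 28 higher genes with a promoter sequence held it (14.3%). The share was 2.22% of 225 lower genes, 2.55% of 2976 genes of the main set and 3.97% of all 32851 promoter sequences. The hypoxia core was in 20 of the 28 higher genes (71.4%), 71.1% of the lower genes and 72.9% of the main set, so the higher genes were close to the background share. TGACNNNGC, the antioxidant response element core, was in 32.1%, 21.3% and 16.8%. TGCGCNC or TGCACNC, the metal response element core, was in 42.9%, 43.1% and 41.6%. A match of these letters is a description of the sequence and not evidence of binding.

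Of 17 genes of the integrated stress response, 16 lay above 0, 4 (23.5%) were at least 2-fold higher, against 0.980% of all genes, and 1 (5.88%) was lower, against 7.61%. The median was 0.46. Trib3, a pseudokinase that feeds back on ATF4, read 106 in normoxia, 112 in normoxia +1h, 320 after chronic hypoxia, 338 after chronic hypoxia plus reoxygenation, 231 after cyclic hypoxia and 340 after cyclic hypoxia plus reoxygenation, a ratio of 1.60. All 4 hypoxic arrays were above both normoxia arrays. Nupr1, a small stress-induced nuclear protein, was near its control after cyclic hypoxia (90.9 units) and at 204 an hour later against 77.6, a ratio of 1.40 (1.15 on its other probe set). Slc7a5, the large amino acid transporter LAT1, stood at 1.03 and its partner Slc3a2 at 0.81. The transcription factor Cebpb stood at 1.01, Shmt2 at 0.85, Atf4 itself at 0.56 (1.05 on its other probe set) and the asparagine synthetase Asns at 0.54. Ddit3, the pro-apoptotic factor CHOP, was at 0.46 here and 2.02 in the chronic regime, and Chac1, a glutathione-degrading enzyme, at 0.04 and 1.19. Cebpg, a bZIP partner of ATF4, was the lower member, at 119 and 31.4 units and a ratio of -1.92. The 13 aminoacyl-tRNA synthetases, many of them ATF4 targets, had a median of 0.43 with 12 above 0 and none at 2-fold, led by Sars at 0.92 and Iars at 0.87.

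In the endoplasmic reticulum list, 1 of 20 genes (5%) was 2-fold higher, against 0.980% of all genes, and 1 (5%) lower, against 7.61%, with a median of 0.24. Herpud1, which helps to degrade misfolded proteins of this compartment, read 366 in normoxia +1h and 1009 after cyclic hypoxia plus reoxygenation, a ratio of 1.46 (1.60 on its other probe set). The normoxia arrays differed by 0.59 at Herpud1. Xbp1 (a transcription factor of the unfolded protein response) and Creld2 both stood at 0.87, with 0.63 between the normoxia arrays at Creld2. The chaperone Hspa5 was at 0.53. Hsp90b1, the HSP90 of the same compartment, was lower, at 623 and 306 units and -1.03 (-1.70 on its other probe set).

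Of 17 NRF2 and antioxidant genes in the main set, 3 (17.6%) were at least 2-fold higher, against 0.980% of all genes, and none lower, with a median of 0.26. Srxn1, sulfiredoxin, which repairs oxidised peroxiredoxins, read 173 in normoxia, 182 in normoxia +1h, 228 after chronic hypoxia, 235 after chronic hypoxia plus reoxygenation, 344 after cyclic hypoxia and 501 after cyclic hypoxia plus reoxygenation, a ratio of 1.46. Txnrd1, thioredoxin reductase 1, read 619, 579, 482, 523, 989 and 1255 on the arrays in the same order, a ratio of 1.12. The cyclic arrays were the highest for both genes, and the chronic arrays were below both normoxia arrays for Txnrd1. Against the shared control, chronic hypoxia plus reoxygenation gave 0.37 for Srxn1 and -0.15 for Txnrd1. Osgin1, an oxidative stress growth inhibitor outside the main set, went from 47.7 to 123 (1.37) and stood at -0.14 in the chronic regime. Nqo1, of the same list and also outside the main set, went the other way, from 78.6 to 30.5 (-1.37). It read 79.6 after cyclic hypoxia and stood at -0.42 in the chronic regime. Hmox1, the third higher gene of the main set, was higher in both regimes. Sqstm1, the autophagy receptor p62, stood at 0.67 and Me1 at -0.68. Gclm, a subunit of the glutathione-making ligase, was at 0.58, but the normoxia arrays differed there by 0.63. Mt2, a metal-binding metallothionein, went from 1938 to 4095 (1.08), but the normoxia arrays differed there by 0.89, and Mt1 stood at 0.22.

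**Figure D2:**
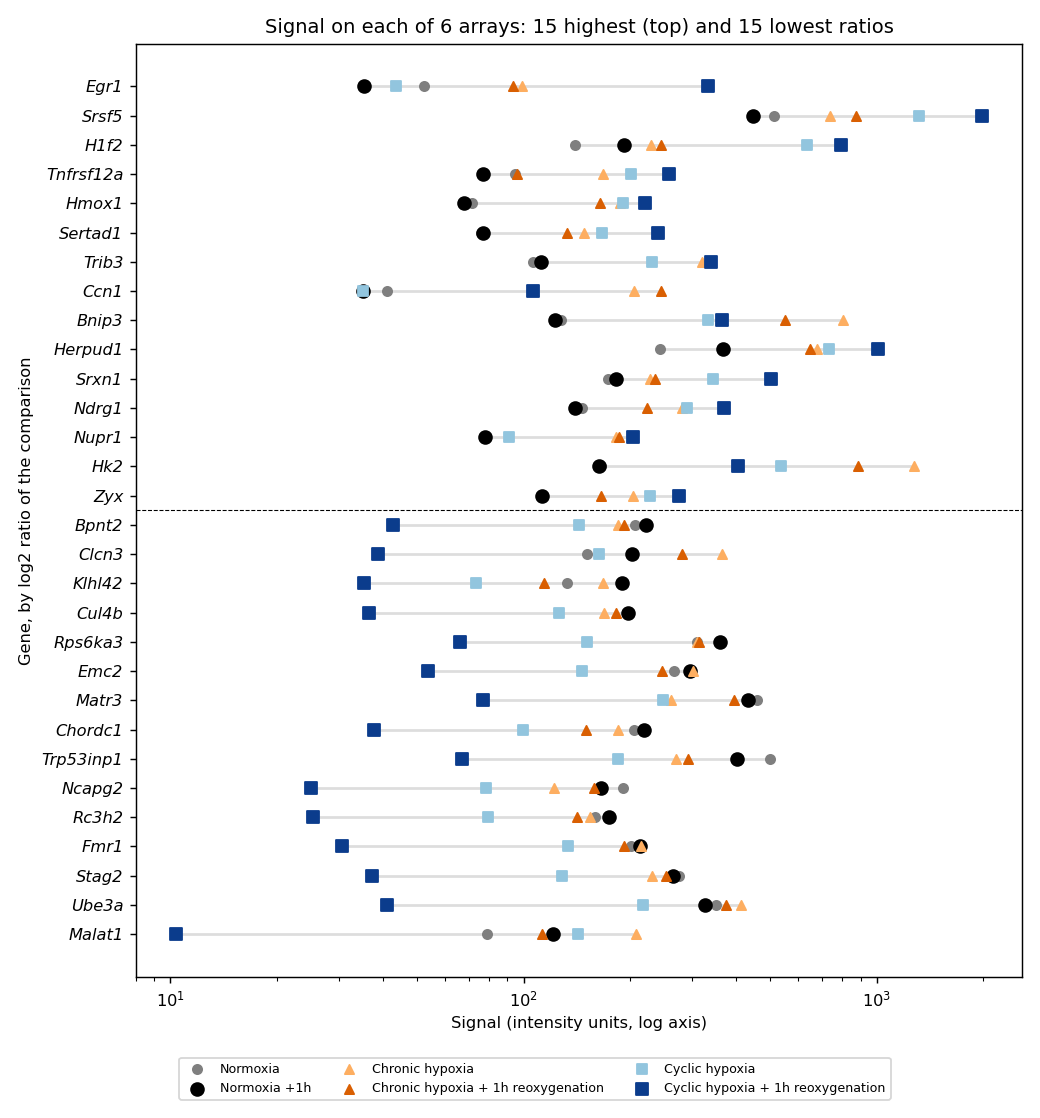
Signal (horizontal, log axis, intensity units) on each of the 6 arrays for the 15 genes with the highest ratios (above the dashed line) and the 15 with the lowest (below it), 1 symbol per array. Cyclic hypoxia plus reoxygenation (dark blue squares) lies to the left of all other arrays for every lower gene, and cyclic hypoxia without the last hour (light blue) lies between it and normoxia +1h for every lower gene but Malat1.

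The remaining genes of the top 15 had other roles. Srsf5, a serine- and arginine-rich splicing factor, read 445 in normoxia +1h, 1320 after cyclic hypoxia and 1989 after reoxygenation, a ratio of 2.16, and 875 after chronic hypoxia plus reoxygenation. H1f2, a linker histone, read 193, 634 and 791 on the same first 3 arrays (2.04, and 2.27 on its other probe set) but 245 in the chronic regime. Tnfrsf12a, the receptor for the cytokine TWEAK, read 77.0, 201 and 258 (1.74) and 95.6 in the chronic regime. H1f2 and Tnfrsf12a were thus high on both cyclic arrays. Chronic hypoxia plus reoxygenation gave 0.35 and 0.31 against the shared control, with 0.81 and -0.12 on their other probe sets. Chronic hypoxia without the last hour gave 0.72 and 0.82 against normoxia. Sertad1, a cell cycle cofactor, stood at 1.65 and Zyx, a focal adhesion protein, at 1.29. The other members of the 35 are named here because they complete it. They were Wsb1 (1.27, with -0.98 between the normoxia arrays), Aldh18a1 (1.22), Arih2 (1.12), Creb3 (1.12), Cth (1.10), Cdc42se1 (1.10), Ajuba (1.09), Tfap2a (1.08), Btg1 (1.07), Smpd1 (1.06), Igsf8 (1.04), Nnmt (1.03), Mcrip1 (1.02) and Slc1a5 (1.01). Among them Aldh18a1 makes proline, Cth makes cysteine and Slc1a5 carries glutamine into cells.

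Malat1, a nuclear long noncoding RNA, had the lowest ratio of the main set. Its signal was 78.6 in normoxia, 121 in normoxia +1h, 208 after chronic hypoxia, 113 after chronic hypoxia plus reoxygenation, 142 after cyclic hypoxia and 10.4 after cyclic hypoxia plus reoxygenation, a ratio of -3.55. Malat1 was above its control before the last hour and far below it after, and the normoxia arrays differed by 0.63. Neat1, another nuclear noncoding RNA, outside the main set, read 37.1 in normoxia +1h and 0.591 after cyclic hypoxia plus reoxygenation, but 3.79 after cyclic hypoxia and 9.90 in the first normoxia array. Of the other noncoding RNAs of that list, Gas5 stood at -0.27 and Snhg1 at 0.48 in the main set, and Meg3, outside it, read 4.46 and 7.39 units (0.73).

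Ube3a, a ubiquitin ligase, read 350 in normoxia, 327 in normoxia +1h, 413 after chronic hypoxia, 373 after chronic hypoxia plus reoxygenation, 217 after cyclic hypoxia and 41.0 after cyclic hypoxia plus reoxygenation, a ratio of -3.00. Stag2, a cohesin subunit, read 275, 266, 232, 253, 128 and 37.3 in the same order (-2.83). Fmr1, the RNA-binding protein FMRP, read 202, 214, 215, 193, 134 and 30.6 (-2.81). All 3 genes were near their control in the chronic regime (0.19, -0.07 and -0.15), lower after cyclic hypoxia and lowest an hour later. Rc3h2, an RNA-binding repressor, stood at -2.79, Ncapg2 (a condensin subunit) at -2.72, Trp53inp1 (a stress protein induced by p53) at -2.58 and Chordc1 (an HSP90 cochaperone) at -2.53. Then came Matr3, a nuclear matrix RNA-binding protein, at -2.49 (-2.39 on its other probe set), Emc2 (-2.47), the kinase Rps6ka3 (-2.44), the cullin Cul4b (-2.44), Klhl42 (-2.43), the chloride channel Clcn3 (-2.39) and Bpnt2 (-2.38, with -1.08 and -1.34 elsewhere).

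Several splicing factors were lower, while the median of their list was near 0. Of 37 SR proteins, hnRNPs and splicing regulators, 8 (21.6%) were 2-fold lower against 7.61% of all genes, 1 was higher, and the median was -0.15, or 0.02 in genes with a mean signal of 200 or more. Hnrnph1 went from 485 to 135 (-1.84), Rbm25 from 108 to 31.3 (-1.79), Luc7l3 from 186 to 58.2 (-1.68) and Tardbp, the RNA-binding protein TDP-43, from 283 to 90.8 (-1.64). Tra2b stood at -1.39, Rbm39 at -1.21, Luc7l2 at -1.16 and Sf3b1 at -1.08. Srsf5 was the higher member, at 2.16. Srsf3 stood at 0.04 on its brightest probe set and at -0.73, -1.31, -0.00 and -0.50 on the others. In a separate list of cold-inducible and CLK-regulated splicing genes, 3 were in the main set. Of these 1 was 2-fold lower, Rbm5 at -1.29, against 7.61% of all genes. Clk1, a kinase that phosphorylates SR proteins, read 117 in normoxia +1h, 232 after cyclic hypoxia and 61.4 after reoxygenation, so it was above its control before the last hour (0.97) and below it after (-0.93). Rsrp1, the other main-set gene of the same list, read 112 in normoxia +1h, 566 after cyclic hypoxia and 172 after reoxygenation. It was also highest before the last hour, at 1.89 against normoxia and then 0.63 against normoxia +1h. Its other probe set gave 1.90 and 0.58, and the normoxia arrays differed by -0.45 at Rsrp1. Cirbp, a cold-inducible RNA-binding protein outside the main set, read 36.6, 128 and 136 (1.89) and did not lose its signal in that hour.

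Of the chaperones of the heat shock response, 5 of 14 (35.7%) were 2-fold or more lower, against 7.61% of all genes, and the median was -0.30. Besides Chordc1, these were Hsph1 (540 and 193 units, -1.49), Dnaja1 (775 and 288, -1.43), Hspa1b (126 and 52.0, -1.28) and Hsp90aa1, the inducible HSP90 (1237 and 558, -1.15). The other probe sets of Hsp90aa1 read -1.92 and -1.87, and that of Hspa1b -0.87. Hspa9, the mitochondrial HSP70, was the highest member at 0.79. Against the same control, chronic hypoxia plus reoxygenation gave -1.81 for Hspa1b, -0.75 for Hsph1 and 0.29 for Hsp90aa1.

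Mitf, the master transcription factor of melanocytes, read 2366 in normoxia, 2568 in normoxia +1h, 2820 after chronic hypoxia, 2225 after chronic hypoxia plus reoxygenation, 1256 after cyclic hypoxia and 635 after cyclic hypoxia plus reoxygenation. The ratio was -2.02, on a gene bright on every array, and both cyclic arrays were below all others. Of 17 melanocyte genes, 3 (17.6%) were 2-fold lower, against 7.61% of all genes, and none higher, the others being the pigment granule motor Myo5a (-1.24) and the receptor Met (-1.09). Of the pigment genes, Tyrp1 (0.12), Dct (0.26) and Pmel (0.29) stood near their control, while Slc45a2 was at 0.45 and Gpr143 at 0.85. Cdk2, of the same list, was at 0.76, Mc1r at -0.57 and Sox10, a regulator of Mitf, at -0.25. Tyr, tyrosinase, was at 0.06 on its brightest probe set but at -1.31 and -1.37 on the other 2, so its level is uncertain. The list median was 0.22 as deposited and -0.01 with quantile normalization.

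Both cell cycle lists had a median of -0.34, with the strongest ratios among mitosis genes. Of 24 mitosis and spindle genes 6 (25%) were 2-fold lower, against 7.61% of all genes. They were Top2a, topoisomerase II alpha (533 and 152 units, -1.81), Nusap1 (-1.61), the proliferation marker Mki67 (-1.41), the checkpoint protein Mad2l1 (-1.37), cyclin A2 (Ccna2, -1.18, with -0.67 on another probe set) and Anln (-1.03). Aurka, a mitotic kinase, was at 0.74. None of 27 replication and nucleotide genes passed 2-fold, while 24 lay below 0, with the helicase subunits Mcm4 at -0.81 and Mcm6 at -0.72. At the end of cyclic hypoxia the medians were -0.09 for mitosis and -0.45 for replication. Of 7 p53 targets, 3 (42.9%) were 2-fold lower, against 7.61% of all genes. They were Trp53inp1, Ccng1 (984 and 390 units, -1.34) and the p53 ligase Mdm2 (295 and 122, -1.27). The cell cycle inhibitor Cdkn1a was at -0.14, Zmat3 at 0.39, Aen at 0.16 and Phlda3 at 0.11. The list median was -0.14 as deposited and 0.05 with the mean over probe sets.

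Lists of abundant housekeeping machinery stayed close to 0. The 38 cytosolic ribosomal proteins ranged from 0.05 to 0.64, with a median of 0.23 as deposited and 0.02 with quantile normalization. The 44 respiratory chain genes had a median of 0.17, the 45 mitochondrial ribosomal proteins 0.11 and the 31 proteasome subunits 0.09, with Psmc6 (-1.34) the 1 gene past 2-fold in these lists. The 29 translation initiation factors had a median of 0.13 as deposited and -0.03 with quantile normalization, and included Eif5, a factor for start codon recognition, at -1.80 (-1.60 to -1.68 on 3 other probe sets). The 11 housekeeping genes had a median of 0.16 as deposited and -0.00 with quantile normalization. Single lower genes in other lists were Idi1 in sterol synthesis (-1.95), the lysosomal membrane protein Lamp2 (-1.68, with -2.04 and -0.43 elsewhere) and the clock repressor Nr1d2 (-1.56). In the invasion list, to which the title of the series refers through metastatic potential, none of 17 genes passed 2-fold and the median was 0.02. It was -0.10 with the first normoxia array as the control. Its lowest members were the membrane proteases Adam17 (-0.95) and Adam10 (-0.72) and the integrin Itgav (-0.86), and its highest Ezr (0.67).

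**Figure D3:**
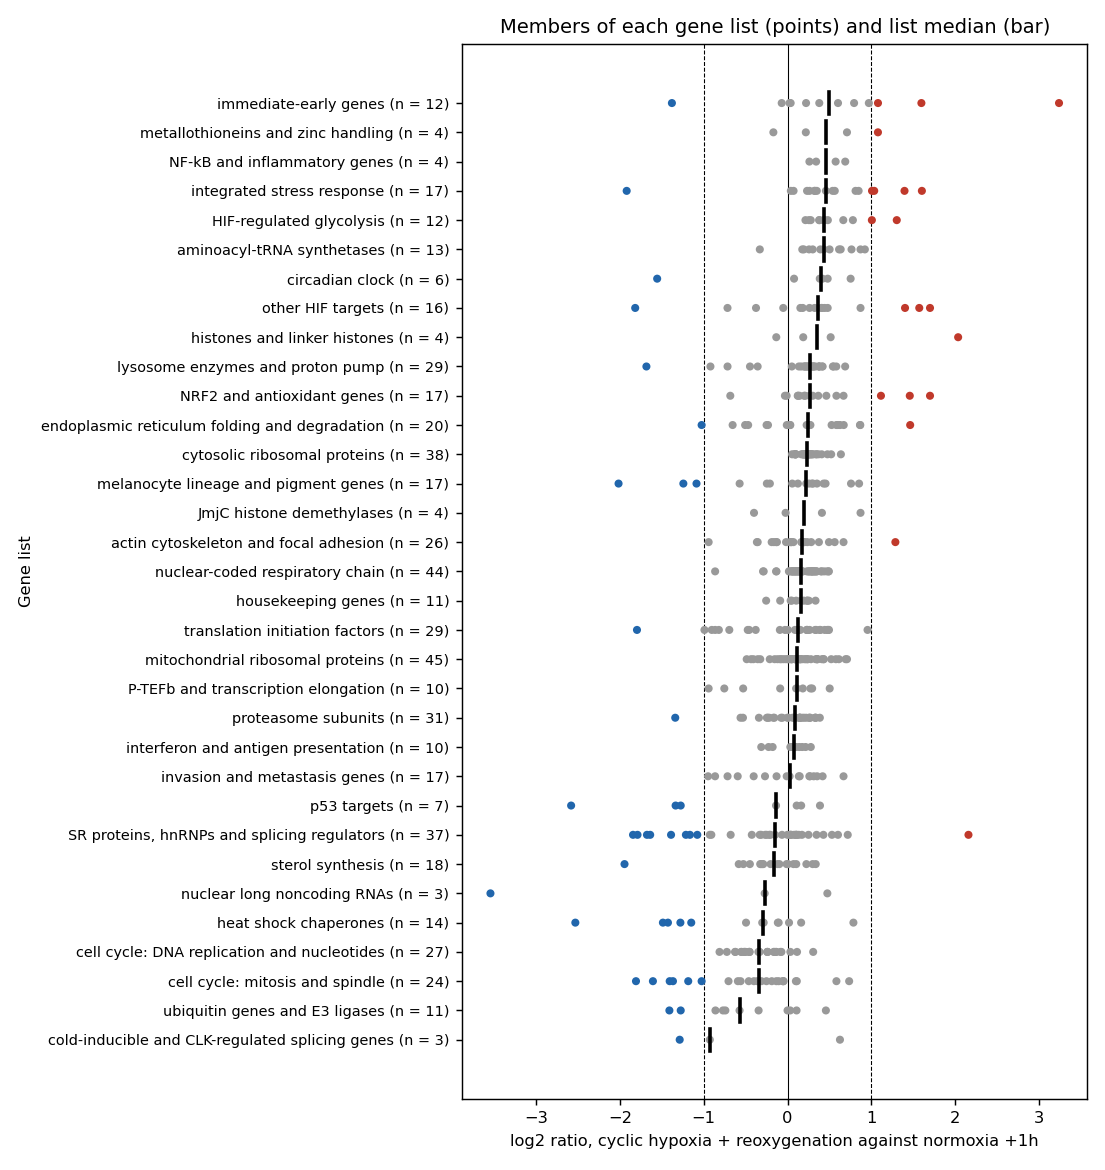
Log2 ratio (horizontal) of each main-set member (points) of the 33 gene lists with 3 or more such members, with the list median as a black bar, dashed lines at 2-fold, and members past them in red (higher) or blue (lower). Most lists centre near 0 with 1 or a few members far out, such as Tfrc among other HIF targets and Cebpg in the integrated stress response.

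The 272 lower genes can be set beside those of the same regime before the last hour. Cyclic hypoxia set against normoxia, a comparison that shares no array with this one, had 52 lower genes (1.46%) and 37 higher (1.04%). The log2 ratios of both comparisons had a correlation of 0.44 across 3573 genes, which are not independent of one another. The lower lists shared 32 genes, 11.8% of the 272 and 61.5% of the 52. The higher lists shared 12, which are 34.3% of the 35 and 32.4% of the 37, and 0 genes were opposite by 2-fold. The shared higher genes were Srsf5, H1f2, Tnfrsf12a, Hmox1, Sertad1, Trib3, Bnip3, Herpud1, Hk2, Zyx, Arih2 and Mt2. The shared lower genes included Stag2, Rc3h2, Ncapg2, Trp53inp1, Chordc1, Rps6ka3, the nuclear export receptor Xpo1 and Tardbp (-1.64 and -1.66).

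The 272 genes had a median of -1.41 here, by their choice, and of -0.40 in that earlier comparison, where 218 lay below 0. Against cyclic hypoxia itself, on a ratio that reuses the array they were chosen on, the median was -1.11 and 168 were at least 2-fold lower, where 218 of all genes (6.10%) were. The 35 higher genes had medians of 1.12 here, 0.69 at the end of cyclic hypoxia and 0.45 in the last hour, in which 3 passed 2-fold, where 9 of all genes (0.252%) did. For the higher genes the larger of the last pair of medians was the one before reoxygenation, and for the lower genes it was the one after. Both last-hour medians reuse the array on which the genes were chosen, so the order of these medians is not a test of timing. Chronic hypoxia plus reoxygenation, set against the same control, had 2 lower (0.0560%) and 38 higher genes (1.06%), and its medians were -0.01 for the 272 and 0.68 for the 35. Cyclic hypoxia plus reoxygenation had the lowest of the 6 signals in 269 of the 272 genes, against 28.0% of all genes, and the highest in 28 of the 35, against 31.5%. That count follows in part from how the genes were chosen.

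**Figure D4:**
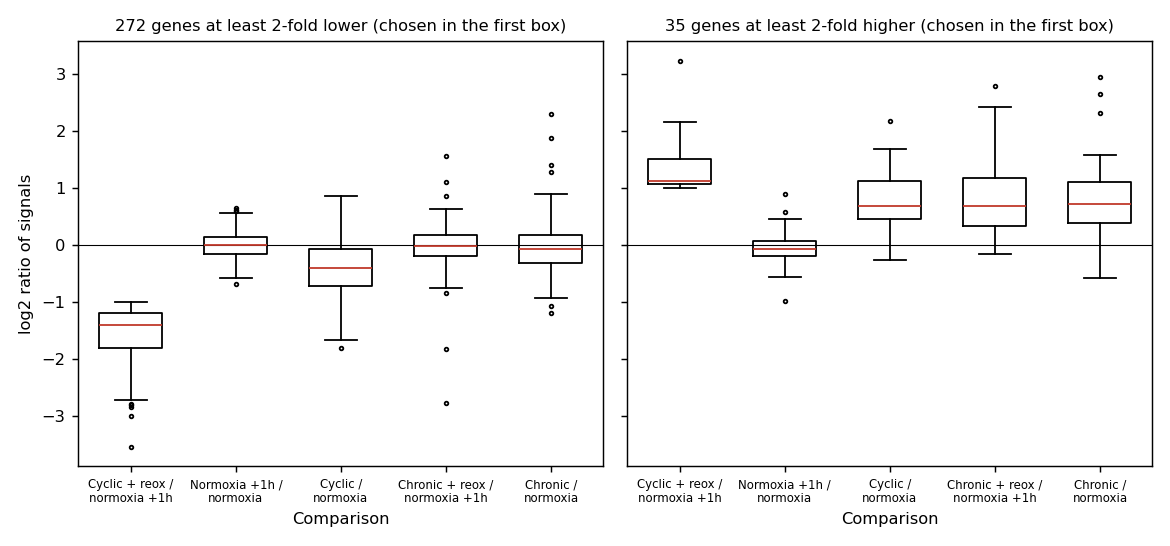
Log2 ratios (vertical) of the 272 lower (left) and 35 higher genes (right) in 5 comparisons, as boxes of the middle quartiles with the median in red, whiskers to the last value within 1.5 box lengths and single genes beyond them as circles. The first box of each panel is the comparison that chose the genes, the boxes of normoxia +1h over normoxia and of chronic hypoxia plus reoxygenation share its normoxia +1h array, and cyclic hypoxia over normoxia, which shares none, has medians of -0.40 and 0.69.

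Some genes differed sharply between the regimes or the times. Ogt, the enzyme that attaches O-GlcNAc sugars, read 110 in normoxia, 116 in normoxia +1h, 403 after chronic hypoxia, 343 after chronic hypoxia plus reoxygenation, 155 after cyclic hypoxia and 46.5 after cyclic hypoxia plus reoxygenation. It was thus 2-fold below the control here (-1.32) and above it in the chronic regime (1.56). Txnip, an inhibitor of thioredoxin, was lower in both, at 186 units in the control, 66.1 here and 27.2 there (-1.49 and -2.77). Mrpl33 stood at 0.41 here and -1.67 at the end of cyclic hypoxia, where the first normoxia array read 419 against 182 in normoxia +1h. The difference at Mrpl33 is therefore one between the controls as well. Ddr1 (0.79 and -1.01) and Trub2 (0.60 and -1.16) also had a brighter first normoxia array, by 0.74 and 0.47 in log2.

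The lower genes were long. The genomic span, from the first to the last base of the gene in RefSeq's GRCm38.p6 table, had a median of 40.4 kilobases in the 272 lower genes, 7.48 in the 35 higher ones and 19 in the main set. Across 5 groups of equal size by span, from short to long, 1.54%, 4.62%, 5.60%, 10.5% and 15.8% were 2-fold lower, and 2.24% of the shortest against 0.420% of the longest group were 2-fold higher. The medians ran from 0.15 in the shortest group to -0.22 in the longest. At the end of cyclic hypoxia the lower genes numbered 3, 10, 14, 12 and 13 in the same groups, and the medians lay between -0.00 and 0.07.

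Longer genes were also dimmer, with median mean signals of 405 in the shortest and 193 in the longest group, and the share of lower genes fell with brightness. It was 10.3% of 1402 genes with a mean signal of 100 to 200, 7.80% from 200 to 500, 4.51% from 500 to 1000, 2.31% from 1000 to 2000, and 0 of 154 genes above that. Within genes of 100 to 200 the share still ran from 2.19% in the shortest to 18% in the longest group, from 200 to 500 it ran from 1.29% to 15.1%, and at 500 or more from 1.33% to 7.89%. The groups in between did not follow a strict order. From 100 to 200 the second group had 6.27% and the middle one 5.23%, and at 500 or more the middle one had 4.12% and the next 4.03%. The part of brightness, array quality or RNA amount in these shares was not tested. The promoters of the lower genes had a median GC content of 64.7%, those of the higher genes 59.5% and those of the main set 61.7%.

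**Figure D5:**
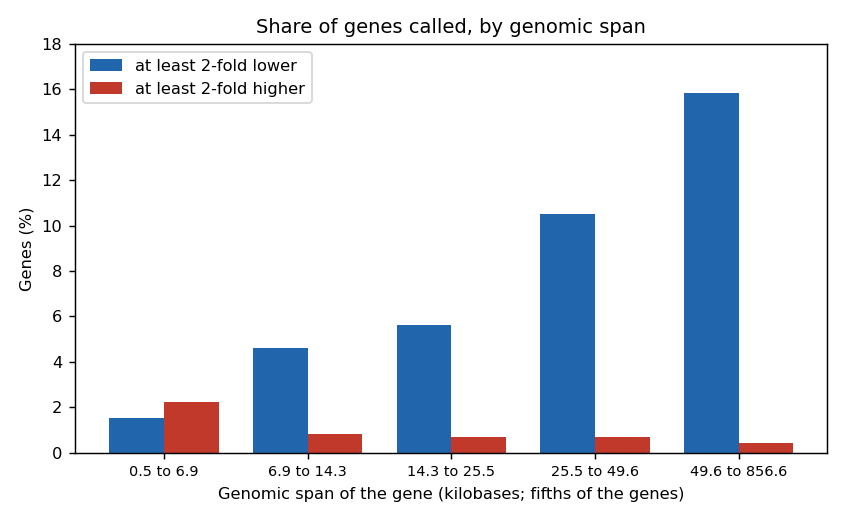
Share of main-set genes (vertical, percent) that were at least 2-fold lower (blue) or higher (red), in 5 groups of equal size by genomic span (horizontal, kilobases). The lower share is 1.54% in the shortest group and 15.8% in the longest, and the higher share goes from 2.24% to 0.420%.

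Other probe sets of the called genes mostly lay on the same side of 0. Of the 272 lower genes, 64 had 81 other probe sets in the main signal range, of which 80 lay below 0 and 49 were 2-fold lower, with a median of -1.17. For 11 higher genes there were 12 others, of which 10 were 2-fold higher, with a median of 1.42. Among all 983 genes with several, 40 had probe sets more than 1 apart in log2 ratio, against 16 between the normoxia arrays. The widest gaps were at Arf6 (0.73 to -1.77), Serbp1 (-0.11 to -2.51), the ubiquitin-conjugating enzyme Ube2d3 (0.17 to -2.22 over 6 probe sets), Tmem167 (-0.43 to -2.61), Marcks (0.15 to -1.84) and Arpp19 (-0.04 to -1.95). For these 6 genes the brightest probe set was not the lowest, and no single ratio describes them. Where on the transcripts the probe sets lie was not examined.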

How the data were processed

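Per the submitters' processing notes the arrays were processed with GCOS; its version and its signal algorithm are not given in the sources used here. The deposited values are signals, that is intensity values on a linear scale, for 22690 probe sets, and leaving out 2% at each end the authors' trimmed mean was 100 on every array, so that scaling was kept. No detection calls were used. Precision was limited by having 1 array a group, and dim genes lie closer to background.

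Signals under 2.1 were set to 2.1 before log2. Probe sets were named through GEO's platform annotation, which gives 1 gene for 20380 of them, several for 691 and none for 1606 (64 controls included), with symbols updated by Entrez identifier from RefSeq's GRCm38.p6 table. The brightest probe set stood for each of 12393 genes, of which 3573 with a mean signal of 100 or more formed the main set.

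Named genes were the 15 highest and 15 lowest ratios, anchor members and up to 4 others with the largest ratios in each list, 8 dim genes a side with 100 units or more on 1 of the arrays, the 6 widest probe set gaps, and 6 a side furthest from each of the comparisons most like it. There were 38 lists of 963 genes, 114 of them not matched on the array and 566 in the main set. The comparison, the lists and the rules were chosen with earlier results of these data known. Promoters were RefSeq's, matched by symbol. Proteins were not analysed here. Alternatives changed the scaling, floor, filter, choice of probe set and control. Python 3.11.15, pandas 2.3.3, numpy 2.4.6 and matplotlib 3.10.9 were used, and the code was checked on simulated data.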

Additional observations from a re-analysis of the deposited data

Results flagged for a closer look

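Myc and Ogt were both at least 2-fold below normoxia +1h after cyclic hypoxia plus reoxygenation and at least 2-fold above it after chronic hypoxia plus reoxygenation. The log2 ratios were -1.38 and 1.11 for Myc, and -1.32 and 1.56 for Ogt. Myc had a mean signal of 100.4 and passed the filter of 100 only with its high signal after chronic hypoxia plus reoxygenation. Each pair shares its control array and each side is 1 array, so the difference between the regimes was not tested.

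Among 534 probe sets bright enough for the main set that name no gene or several genes, 28 were at least 2-fold lower after cyclic hypoxia plus reoxygenation and 3 were higher. Among the 4942 probe sets of that brightness that name 1 gene, 367 were lower and 55 higher, so both shares were larger there. Between the normoxia arrays, 3 of the 534 were lower and 0 higher. These probe sets entered no gene count.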

How the results depend on the processing

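With 1 array a side the results are ratios without an error, and "2-fold" is a limit of size only. The counts of 35 higher and 272 lower genes followed the filter on signal: 64 and 468 of 5127 genes with a mean signal of 50 or more, 21 and 127 of 2171 with 200 or more, and 1357 and 1268 of 12393 without a filter, where most genes are near background. Quantile normalization gave 40 and 231, median centring 44 and 235 (the median of all genes then being 0.13), a floor of 20 units 35 and 272, a filter on the arrays compared alone 36 and 211, and the mean over probe sets 33 and 268. The first normoxia array as the control gave 43 and 292, sharing 25 and 237 genes with the reported ones, and both normoxia arrays 32 and 278, sharing 25 and 249. Of 330 list medians under these settings, 310 moved by less than the SD between the normoxia arrays. Of 91 named genes past 2-fold, 87 stayed past it with quantile normalization, 87 with centring and 85 with the first normoxia array, and none of the named genes past 2-fold changed sign. No paired analysis was possible because each group had 1 array. Of the genes outside the main set only the 323 with 100 units or more on 1 of the arrays compared were described.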

Other observations

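Outside the main set, 323 genes reached 100 units on at least 1 of the arrays compared. There, 15 (4.64%) were 2-fold or more higher after cyclic hypoxia plus reoxygenation and 54 (16.7%) lower, on a choice that leaves in genes high on 1 side. Besides Cirbp and Osgin1, the highest were Mical1, an actin-oxidising enzyme (40.9 and 123 units, 1.59), Itfg2 (1.48), Ppp1r15a, which restores translation after stress by dephosphorylating eIF2 (38.8 and 106, 1.45), 2410002F23Rik (1.45), Rusc2 (1.44) and Mgll, a lipase (1.29). The lowest were the transcription factor Tcf4 (105 and 18.2 units, -2.53), Zbtb14 (-2.50, with 1.07 between the normoxia arrays), Zfp871 (-2.46), B230308N11Rik (-2.34), Shcbp1 (-2.32), Ankrd28 (-2.25), the checkpoint kinase Chek1 (116 and 25.3, -2.19) and the kinase subunit Pik3ca (114 and 26 units, -2.13). Chek1 was already low at the end of cyclic hypoxia (-1.16 against normoxia), while Tcf4 was not (-0.19).

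Further genes of the main set with the widest difference from the end of cyclic hypoxia were Atad1, a mitochondrial membrane ATPase (150 units in normoxia +1h, 147 after cyclic hypoxia and 29.2 after reoxygenation, -2.36), and Scfd1, a vesicle fusion protein (138, 126 and 30.4, -2.18). Both were at their control level before the last hour. The ubiquitin list had a median of -0.57 over 11 genes, with 2 (18.2%) at least 2-fold lower, Itch (-1.41) and Mdm2 (-1.27), against 7.61% of all genes. The 4 NF-kB genes of the main set all lay above 0 (median 0.46), with the inhibitors Nfkbib at 0.69 and Nfkbia at 0.57.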
